A study of Homo sapiens with 6 samples.

Results

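The genes described here are 9 members of the NRF2 antioxidant pathway, measured by RNA sequencing in a rhabdomyosarcoma cell line treated with an inhibitor of HSP70 chaperones. They were chosen by name: the transcription factor gene NFE2L2, its inhibitor KEAP1, and the target genes HMOX1, NQO1, GCLC, GCLM, TXNRD1, SRXN1 and TXN. All 9 were found among the 55401 gene names of the files, and all 9 were among the 15148 genes that reached a mean of 1 TPM, a transcript level scaled for length and library size, in at least 1 group, and were tested.

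There were 3 groups with 2 libraries, A and B, in each. Resistant MAL3-101 libraries came from RMS13-R, a line derived from RMS13 that had acquired resistance to MAL3-101, treated with 10 µM of the drug for 9 h. Parental MAL3-101 libraries came from RMS13, a human rhabdomyosarcoma line of the alveolar type, given the same dose for the same time, and parental DMSO libraries from RMS13 given the vehicle for 9 h. The series title names MAL3-101 as an HSP70 inhibitor. Resistant cells with vehicle were not analysed here, so what the line does and what the drug does in it cannot be told apart. Whether RMS13-R is 1 clone, and whether A and B were separate cultures, is not given in the labels, so the p-values speak only of the spread among these 6 libraries.

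NRF2, the protein of NFE2L2, is a transcription factor that KEAP1 holds for ubiquitination by a CUL3 ligase, so that it is short-lived in unstressed cells. Oxidants and electrophiles modify cysteines of KEAP1, after which NRF2 accumulates, pairs with a small MAF protein and binds antioxidant response elements near its target genes. Its classic targets make glutathione, keep thioredoxin reduced, detoxify quinones and break down heme. Much of this control acts on the NRF2 protein, which RNA sequencing does not measure.

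Promoter sequences show where letters that match the antioxidant response element lie near the starts of these genes. They are given for the windows that hold a match. RefSeq promoter windows on GRCh38.p14, from 250 bases before to 50 after a transcription start, were matched by symbol to 8 of the 9 members, in 11 windows. The element was searched as TGACNNNGC on both strands. A match was found in 4 of the 11 windows, of 3 genes, against 13.3% of all 35116 promoter windows. The windows of NFE2L2, NQO1, GCLC, SRXN1 and TXN did not hold these letters, and HMOX1 had no window. Sequence outside the windows was not searched, so an element further away would be missed. Each sequence below runs 5′ to 3′ on the gene's own strand from 110 bases before to 10 bases after the start, with each match in capitals, and a match on the other strand appears as its reverse complement.
GCLM, chr1:93909421-93909540, minus strand: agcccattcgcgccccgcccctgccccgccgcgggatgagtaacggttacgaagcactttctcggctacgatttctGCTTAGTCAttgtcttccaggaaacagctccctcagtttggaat
KEAP1, chr19:10502762-10502881, minus strand: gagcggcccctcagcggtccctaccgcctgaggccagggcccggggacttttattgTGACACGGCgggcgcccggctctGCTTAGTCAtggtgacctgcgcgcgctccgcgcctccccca
TXNRD1 upstream start, chr12:104215669-104215788, plus strand: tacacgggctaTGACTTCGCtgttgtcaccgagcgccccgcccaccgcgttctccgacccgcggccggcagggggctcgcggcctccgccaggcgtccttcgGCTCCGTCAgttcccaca
TXNRD1 downstream start, chr12:104286922-104287041, plus strand: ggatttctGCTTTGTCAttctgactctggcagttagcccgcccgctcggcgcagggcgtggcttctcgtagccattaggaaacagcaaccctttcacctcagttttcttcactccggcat
The match in GCLM and 1 of the pair in KEAP1 had the same letters, TGACTAAGC, beginning 34 and 31 bases before the start. The AP-1 site TGANTCA, which antioxidant response elements often contain, and the heat shock element GAANNTTC were found in 0 of the 11 windows, against 7.71% and 6.77% of all windows. So was TGATGNAA, a core shared by C/EBP and ATF sites, which 3.62% of all windows held. A match is a run of letters, and no binding was measured.

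Each library had between 13918 and 14334 genes at 1 TPM or more. The muscle markers MYOD1, MYOG and DES were at 317.79 TPM or more in every library, and a list of 7 such genes summed to 1689 and 1695 TPM in resistant MAL3-101, 1824 and 1818 TPM in parental MAL3-101, and 1965 and 1857 TPM in parental DMSO libraries. Of these MYF5 was listed at 0 in all 6 libraries, MYF6 was at most 0.05 TPM, and TMEM8C was between 0.88 and 3.35 TPM. CHRNA1, a muscle acetylcholine receptor subunit, was at 52.09 and 49.89 TPM in resistant MAL3-101 libraries. In parental MAL3-101 libraries it was at 314.66 and 312.34 TPM, and in parental DMSO libraries at 285.18 and 337.16 TPM. Of 5 epithelial markers, only EPCAM reached 1 TPM, KRT5 was listed at 0 throughout, and their sum was 0.550 and 0.590 TPM in resistant MAL3-101, 6.08 and 6.13 TPM in parental MAL3-101, and 3.87 and 3.70 TPM in parental DMSO libraries. Leukocyte and endothelial markers summed to at most 1.06 TPM, and the part of any of these in the results below was not tested.

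NFE2L2 transcripts rose with MAL3-101 in parental cells and stood at an intermediate level in resistant cells. The level was 56.86 and 58.4 TPM in resistant MAL3-101 libraries, 113.6 and 105.88 TPM in parental MAL3-101 libraries, and 37.39 and 37.36 TPM in parental DMSO libraries. The 3 groups did not overlap, and the drug-treated parental libraries were highest. With MAL3-101, parental cells had 2.94 times the mean TPM seen with DMSO, a log2 fold change of log2(TPM + 1) of 1.53 (SE 0.06, adjusted p = 6.9e-06). In resistant against parental MAL3-101 cells it was -0.92 (SE 0.06, adjusted p = 2.4e-05), and in resistant MAL3-101 against parental DMSO cells 0.61 (SE 0.06, adjusted p = 1.6e-04). These are moderated tests by limma with Benjamini-Hochberg adjustment over all tested genes, as are all adjusted p-values below. In a culture, fewer cells with a transcript and less transcript per cell cannot be told apart. Exons of AGPS, an enzyme of ether lipid synthesis, overlap NFE2L2 on the opposite strand in GENCODE 29. AGPS was at 38.34 and 37.98 TPM in resistant MAL3-101, 28.0 and 27.21 TPM in parental MAL3-101, and 25.83 and 26.78 TPM in parental DMSO libraries, and whether counting used strand is not given in the sources used here.

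KEAP1, the adaptor that brings NRF2 to the CUL3 ligase, moved the opposite way in parental cells. Its transcripts were at 65.87 and 66.67 TPM in resistant MAL3-101 libraries, 46.05 and 44.85 TPM in parental MAL3-101 libraries, and 62.65 and 62.91 TPM in parental DMSO libraries. Parental cells with the drug were thus lowest, and the other groups lay within a few TPM of each other. KEAP1 fell by 0.46 on the log2 scale with MAL3-101 in parental cells (SE 0.05, adjusted p = 7.1e-04). It was higher in resistant than in parental MAL3-101 cells by 0.53 (SE 0.05, adjusted p = 1.4e-04). Resistant MAL3-101 against parental DMSO cells gave 0.08 (95% interval -0.04 to 0.20, adjusted p = 0.24), which passed the test only after median-ratio scaling, at 0.15 (adjusted p = 0.0485). The ratio of NFE2L2 to KEAP1 TPM was 0.863 and 0.876 in resistant MAL3-101, 2.47 and 2.36 in parental MAL3-101, and 0.597 and 0.594 in parental DMSO libraries. Only in parental cells with the drug was the factor's transcript more abundant per length than that of its inhibitor.

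**Figure D1:**
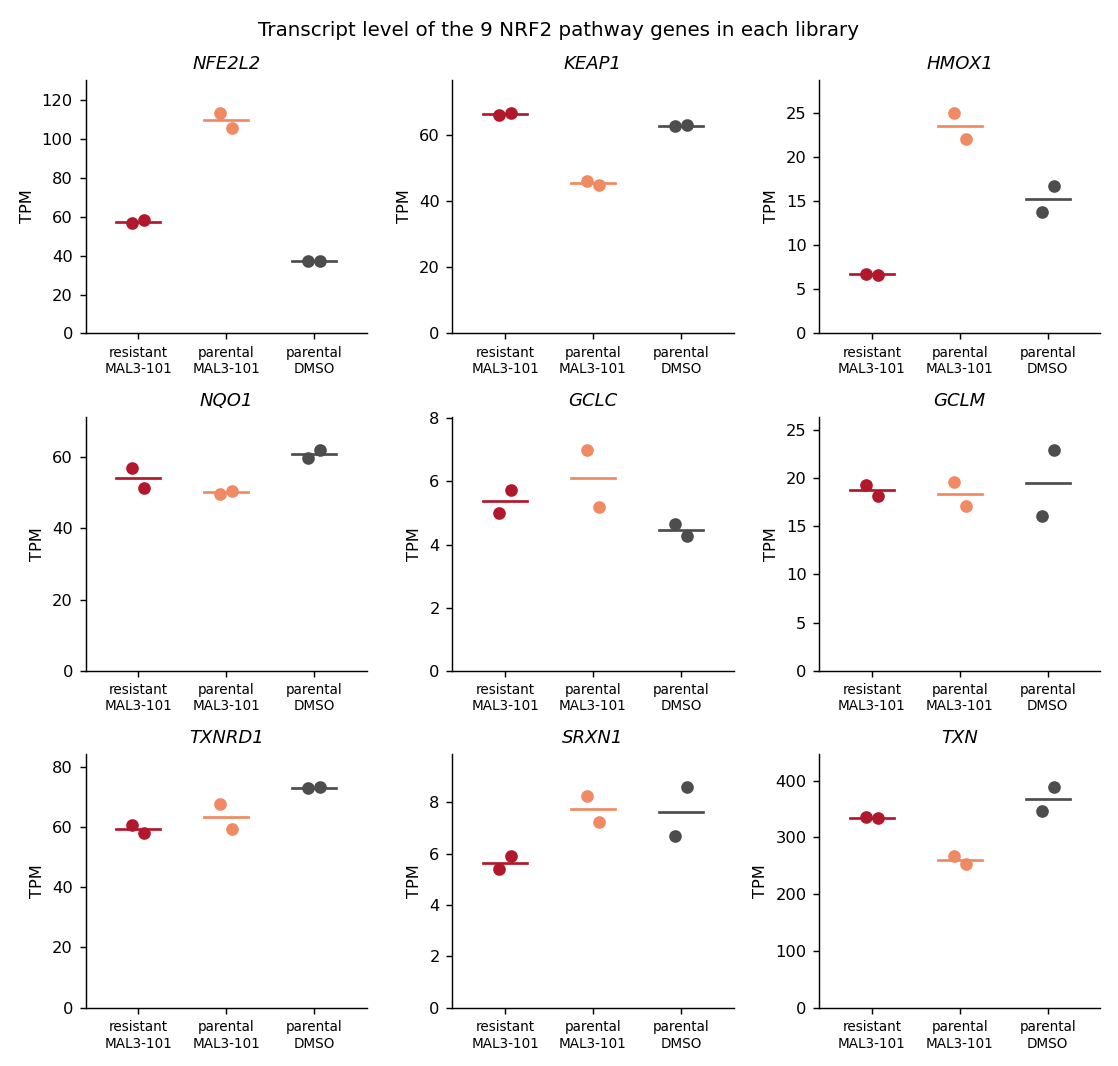
Transcript level in TPM (vertical axes, each from 0) of the 9 genes in resistant MAL3-101, parental MAL3-101 and parental DMSO libraries; points are libraries A and B and bars their mean. NFE2L2 and HMOX1 are highest, and KEAP1 and TXN lowest, in parental MAL3-101 libraries, while GCLM libraries of the 3 groups overlap.

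HMOX1, which encodes the inducible heme oxygenase that opens the heme ring, had the largest difference between resistant and parental cells among the 9 genes. It stood at 6.77 and 6.61 TPM in resistant MAL3-101 libraries, 24.98 and 22.07 TPM in parental MAL3-101 libraries, and 13.74 and 16.72 TPM in parental DMSO libraries. The groups did not overlap, and resistant cells with the drug lay below the vehicle libraries of the parental line. The rise with MAL3-101 in parental cells was 0.60 (SE 0.12, adjusted p = 0.0062). Without library A of parental MAL3-101 it was 0.51 and did not pass (adjusted p = 0.063). In resistant cells HMOX1 was lower than in parental MAL3-101 cells, at -1.67 (SE 0.12, adjusted p = 3.8e-05), and lower than in parental DMSO cells, at -1.07 (SE 0.12, adjusted p = 3.0e-04). Both of these calls were kept under all 16 alternative settings. HMOX2, the constitutive heme oxygenase and no classic NRF2 target, was at 19.62 and 20.6 TPM in resistant MAL3-101, 31.76 and 31.48 TPM in parental MAL3-101, and 33.23 and 31.72 TPM in parental DMSO libraries. It was lower in resistant than in parental MAL3-101 cells, at -0.63 (SE 0.07, adjusted p = 2.3e-04), and gave -0.04 (95% interval -0.19 to 0.12, adjusted p = 0.68) for MAL3-101 in parental cells.

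NQO1, a flavoprotein that reduces quinones and a common readout of NRF2 activity, differed by small amounts between the groups. Its level was 57.02 and 51.4 TPM in resistant MAL3-101, 49.69 and 50.66 TPM in parental MAL3-101, and 59.96 and 62.1 TPM in parental DMSO libraries. The vehicle libraries were highest. NQO1 fell by 0.28 with MAL3-101 in parental cells (SE 0.07, adjusted p = 0.014), a call lost without library A (adjusted p = 0.091) and again without library B (adjusted p = 0.070) of parental MAL3-101. Resistant cells gave 0.11 against parental MAL3-101 (95% interval -0.05 to 0.26, adjusted p = 0.20) and -0.17 against parental DMSO (95% interval -0.32 to -0.02, adjusted p = 0.064). Without DMSO library A the second of these passed at -0.19 (adjusted p = 0.044), and after median-ratio scaling the resistant against parental MAL3-101 value was 0.21 and passed (adjusted p = 0.038). Its relative NQO2 was at 20.79 and 20.82 TPM in resistant MAL3-101, 20.33 and 18.85 TPM in parental MAL3-101, and 20.24 and 17.23 TPM in parental DMSO libraries, and passed no test.

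The glutathione genes GCLC and GCLM encode the catalytic and modifier subunits of glutamate-cysteine ligase, the rate-limiting enzyme of glutathione synthesis. GCLC was at 5.0 and 5.73 TPM in resistant MAL3-101, 7.0 and 5.2 TPM in parental MAL3-101, and 4.65 and 4.27 TPM in parental DMSO libraries. GCLM was at 19.3 and 18.17 TPM in resistant MAL3-101, 19.66 and 17.16 TPM in parental MAL3-101, and 16.11 and 22.95 TPM in parental DMSO libraries. GCLC libraries of the drug-treated groups overlapped and lay above the vehicle, while GCLM libraries of the 3 groups overlapped. With all libraries, neither gene passed the test in any of the 3 comparisons. With MAL3-101 in parental cells GCLC gave 0.37 (95% interval 0.01 to 0.73, adjusted p = 0.096). This value rested on single libraries, at 0.18 when parental MAL3-101 library A was left out (adjusted p = 0.46) and 0.55 when library B was (adjusted p = 0.063). GCLM, with a printed match in its promoter window, gave -0.06 there (95% interval -0.43 to 0.30, adjusted p = 0.77). The wide interval goes with the spread of its DMSO libraries. Without DMSO library A, GCLM gave -0.31 with MAL3-101 in parental cells and -0.28 in resistant MAL3-101 against parental DMSO cells. Without DMSO library B these values were 0.18 and 0.21, so the direction depended on which DMSO library was kept. The modifier subunit's transcripts were 3.86 and 3.17 times those of the catalytic subunit in resistant MAL3-101, 2.81 and 3.30 times in parental MAL3-101, and 3.46 and 5.37 times in parental DMSO libraries.

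Of the thioredoxin genes, TXN fell with the drug in parental cells, and TXNRD1 and SRXN1 did not pass the test there. TXN encodes thioredoxin, a small protein that reduces disulfides, TXNRD1 the cytosolic selenoenzyme that recharges it, and SRXN1 sulfiredoxin, which repairs over-oxidized peroxiredoxins. TXN, the most abundant of the 9, was at 336.49 and 333.91 TPM in resistant MAL3-101, 267.94 and 252.68 TPM in parental MAL3-101, and 347.3 and 388.82 TPM in parental DMSO libraries. The drug-treated parental libraries were lowest and overlapped neither other group. TXN fell by 0.50 with MAL3-101 in parental cells (SE 0.06, adjusted p = 0.0011) and was higher in resistant than in parental MAL3-101 cells by 0.36 (SE 0.06, adjusted p = 0.0022). Resistant MAL3-101 against parental DMSO cells gave -0.13 (95% interval -0.28 to 0.01, adjusted p = 0.12), which passed without DMSO library A at -0.21 (adjusted p = 0.0043).

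TXNRD1 stood at 60.69 and 58.16 TPM in resistant MAL3-101, 67.65 and 59.27 TPM in parental MAL3-101, and 72.88 and 73.26 TPM in parental DMSO libraries. The resistant and parental MAL3-101 libraries overlapped, and both groups lay below the vehicle. In parental cells the drug gave -0.20 (95% interval -0.37 to -0.04, adjusted p = 0.056), which passed in 5 of 16 alternative settings, among them leaving out parental MAL3-101 library A, at -0.30 (adjusted p = 0.039). With library B left out in its place the value was -0.11 (adjusted p = 0.31). In resistant MAL3-101 against parental DMSO cells TXNRD1 was lower, at -0.29 (SE 0.07, adjusted p = 0.012). That call was lost after upper-quartile scaling, at -0.16 (adjusted p = 0.16), without resistant library A at -0.32 (adjusted p = 0.052), and without resistant library B at -0.26 (adjusted p = 0.088). Both of the TXNRD1 promoter windows printed above hold a match to the element's letters.

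SRXN1 was at 5.41 and 5.91 TPM in resistant MAL3-101, 8.24 and 7.25 TPM in parental MAL3-101, and 6.69 and 8.6 TPM in parental DMSO libraries. The resistant libraries were the lowest, and the parental groups overlapped. In parental cells MAL3-101 gave 0.02 (95% interval -0.31 to 0.35, adjusted p = 0.91). SRXN1 was lower in resistant than in parental MAL3-101 cells at -0.39 (SE 0.14), with an adjusted p = 0.048 close to the threshold, and the call was lost in 10 of 16 alternative settings, with adjusted p up to 0.23. Against parental DMSO cells resistant cells gave -0.37 (adjusted p = 0.063), which passed without DMSO library A at -0.53 (adjusted p = 0.0095). In GENCODE 29 another gene on the same strand shares exon sequence with SRXN1, as do others with GCLC and, on the opposite strand, with NQO1 and GCLC; these were not analysed here.

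**Figure D2:**
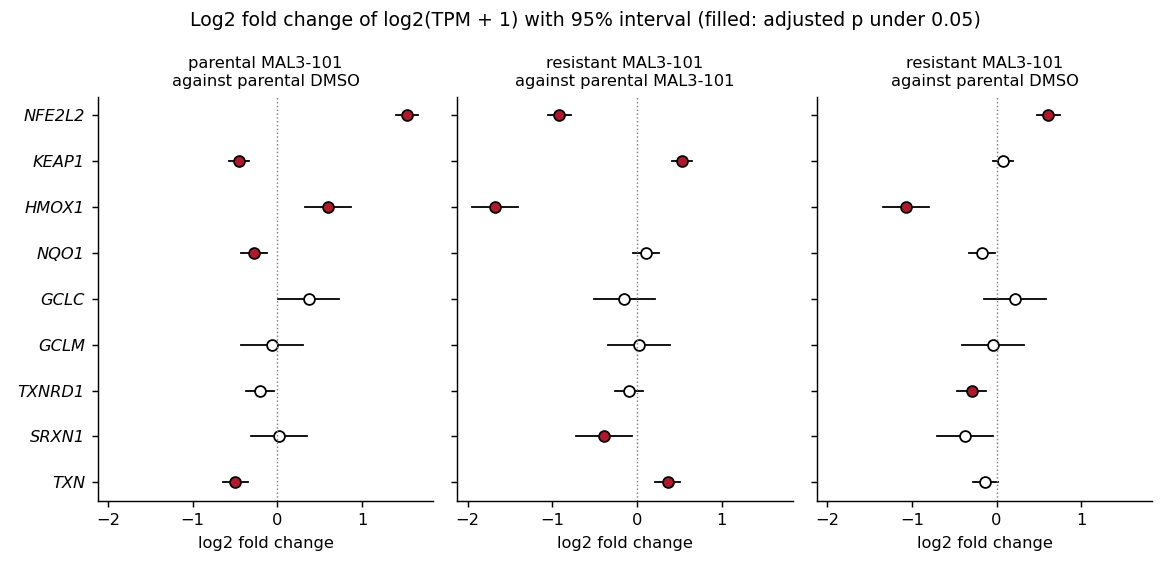
Log2 fold change of log2(TPM + 1) (horizontal axis) of the 9 genes in the 3 comparisons, with 95% intervals from limma; filled points passed at an adjusted p under 0.05. NFE2L2 at 1.53 stands highest in parental MAL3-101 against parental DMSO cells, and HMOX1 at -1.67 lowest in resistant against parental MAL3-101 cells.

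Counted over the list, the 9 genes moved in both directions. With MAL3-101 in parental cells, NFE2L2 and HMOX1 rose and KEAP1, NQO1 and TXN fell. These 2 rises and 3 falls stand against 40.8% of all tested genes that passed, 22.6% higher and 18.2% lower. Libraries of the 2 groups did not overlap for 7 of the 9, against 69.8% of all tested genes. The median of the 9 was -0.06 against 0.02 for all tested genes. The 2 rises and the 7 genes without overlap lie near the shares of all tested genes. The 3 falls lie above that share in a list of only 9, and no test of the list was made. Of the 7 target genes only HMOX1 rose, in the libraries where the factor's own transcript was most abundant.

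In resistant against parental MAL3-101 cells, KEAP1 and TXN were higher and NFE2L2, HMOX1 and SRXN1 were lower. That is 5 of 9, about the share of all tested genes, of which 56.1% passed, 21.3% higher and 34.8% lower. The libraries did not overlap for 6 of the 9, against 83.4% of all, and the median was -0.09 against -0.10 for all. In resistant MAL3-101 against parental DMSO cells, NFE2L2 was higher, HMOX1 and TXNRD1 were lower, and 6 did not pass. How many members were called lower depended on whether DMSO library A was kept. With all libraries, 50.6% of all tested genes passed in this comparison, 20.9% higher and 29.7% lower. The libraries did not overlap for 8 of the 9, against 75.8% of all, and the median was -0.13 against -0.06 for all. The 3 comparisons share libraries, so they are not independent of each other. The number of called genes rested on single libraries: 6181 for MAL3-101 in parental cells became 3158 without parental MAL3-101 library A and 3353 without B. For resistant MAL3-101 against parental DMSO cells 7662 became 4955 without resistant library A and 5004 without B.

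How all genes divided between higher and lower depended on scaling where resistant cells were compared. Against parental MAL3-101 cells, 3228 genes were higher and 5267 lower; median-ratio scaling gave 4201 and 4380, and upper-quartile scaling 4397 and 3788. Against parental DMSO cells, 3160 were higher and 4502 lower; median-ratio scaling gave 3955 and 3866, and upper-quartile scaling 4267 and 3144. Upper-quartile scaling moved the median of all genes by 0.14 and 0.12 in these comparisons. The calls for NFE2L2 and HMOX1 in resistant cells were kept under both scalings, as were those for KEAP1 and TXN against parental MAL3-101.

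**Figure D3:**
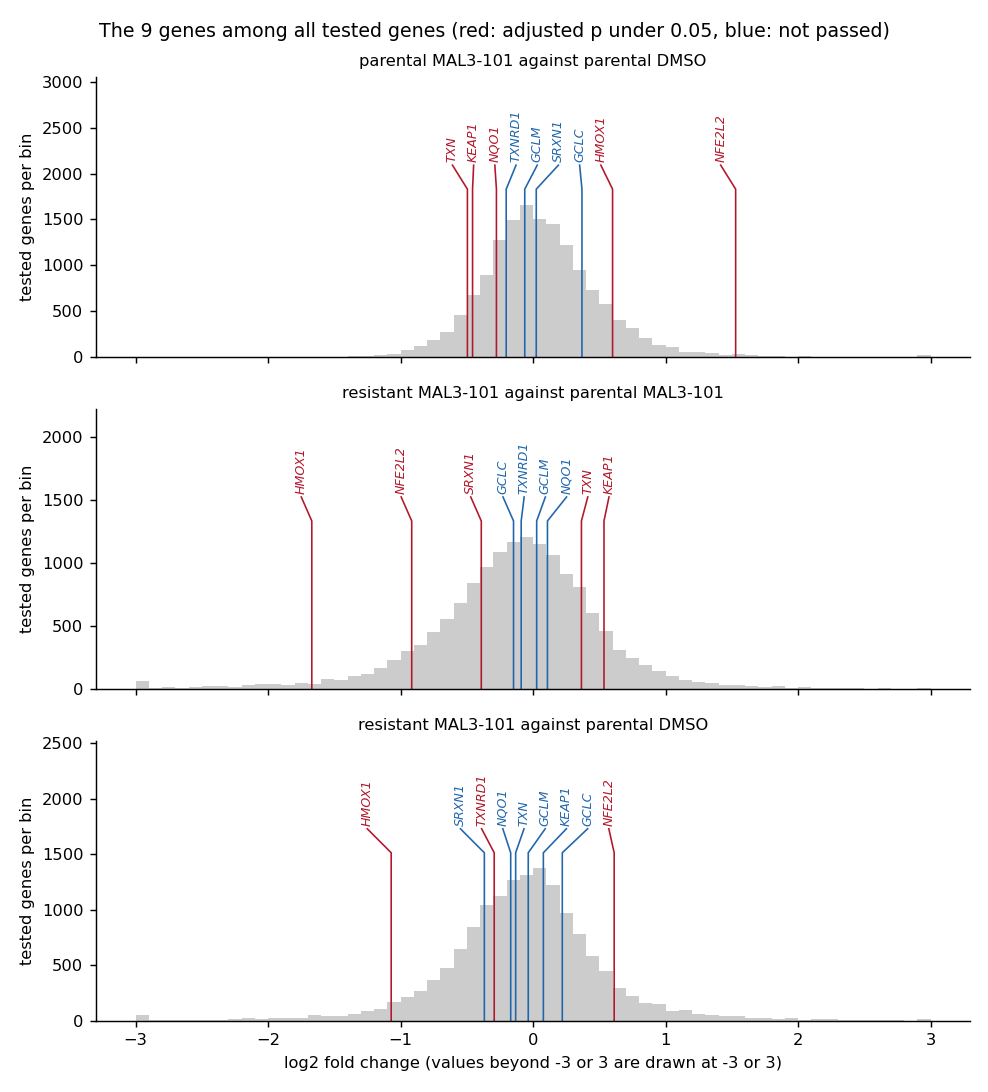
Number of tested genes per bin of 0.1 log2 fold change (grey) in the 3 comparisons, with the 9 genes as lines at their own values; red lines passed at an adjusted p under 0.05 and blue ones did not. NFE2L2 lies in the upper tail in parental MAL3-101 against parental DMSO cells (1.53) and HMOX1 in the lower tail in resistant against parental MAL3-101 cells (-1.67), while most other members lie near the centre.

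The levels of the 9 genes per transcript length spanned the range of expressed genes. In every group TXN was highest, above at least 97.0% of tested genes. In resistant MAL3-101 cells it was followed by KEAP1 at 66.3 ± 0.566 TPM (SD, n = 2), TXNRD1 at 59.4 ± 1.79 TPM, NFE2L2 at 57.6 ± 1.09 TPM and NQO1 at 54.2 ± 3.97 TPM. The libraries of TXNRD1 and NFE2L2 overlapped, and so did those of NFE2L2 and NQO1. GCLM at 18.7 ± 0.799 TPM and HMOX1 at 6.69 ± 0.113 TPM followed, and SRXN1 at 5.66 ± 0.354 TPM and GCLC at 5.37 ± 0.516 TPM overlapped.

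In parental MAL3-101 cells the second place belonged to NFE2L2, at 109.7 ± 5.46 TPM, above 91.0% of tested genes. TXNRD1 at 63.5 ± 5.93 TPM, NQO1 at 50.2 ± 0.686 TPM and KEAP1 at 45.5 ± 0.849 TPM came next without overlap, then HMOX1 at 23.5 ± 2.06 TPM, GCLM at 18.4 ± 1.77 TPM, SRXN1 at 7.75 ± 0.700 TPM and GCLC at 6.10 ± 1.27 TPM. HMOX1 thus stood above GCLM there, while in the other groups its mean lay below. In parental DMSO cells the order was TXN, TXNRD1 at 73.1 ± 0.269 TPM, KEAP1 at 62.8 ± 0.184 TPM, NQO1 at 61.0 ± 1.51 TPM and NFE2L2 at 37.4 ± 0.0212 TPM, which lay above 71.4% of tested genes. GCLM at 19.5 ± 4.84 TPM and HMOX1 at 15.2 ± 2.11 TPM overlapped, and SRXN1 at 7.65 ± 1.35 TPM stood above GCLC at 4.46 ± 0.269 TPM.

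Summed over the 7 targets, the level was 490.7 and 479.9 TPM in resistant MAL3-101, 445.2 and 414.3 TPM in parental MAL3-101, and 521.3 and 576.7 TPM in parental DMSO libraries. The sum was lowest in the libraries with the highest ratio of NFE2L2 to KEAP1, and the groups did not overlap. TXN alone made up between 60.2% and 69.6% of it, so the sum follows TXN above all.

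**Figure D4:**
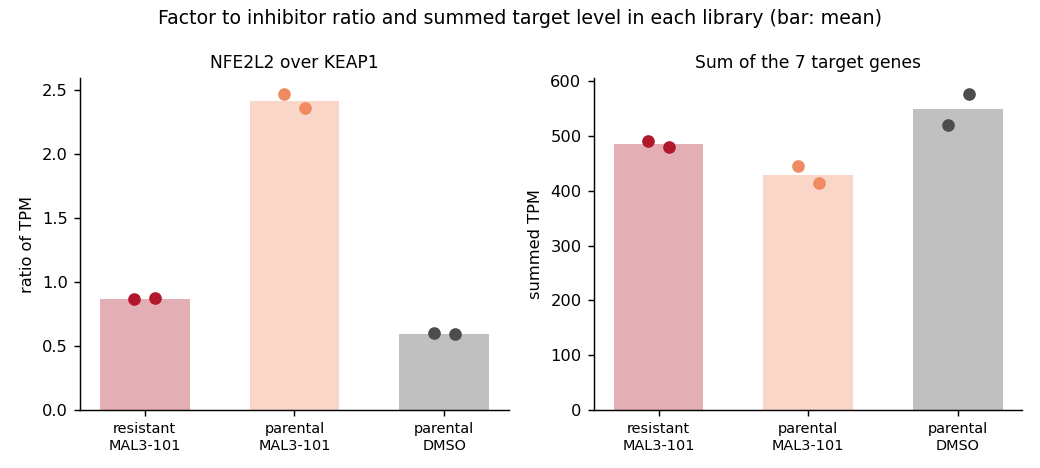
Ratio of NFE2L2 to KEAP1 TPM (left) and summed TPM of the 7 target genes (right) in resistant MAL3-101, parental MAL3-101 and parental DMSO libraries; points are libraries and bars their mean, from 0. The ratio is highest in parental MAL3-101 libraries (2.47 and 2.36), where the sum is lowest (445.2 and 414.3 TPM).

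Among 10 further regulators of the pathway, the small MAF genes MAFF and MAFK had the largest rises in parental cells. MAFF, a stress-inducible partner with which NRF2 binds DNA, was at 3.44 and 3.52 TPM in resistant MAL3-101, 37.9 and 32.77 TPM in parental MAL3-101, and 4.09 and 5.72 TPM in parental DMSO libraries. It rose by 2.63 with MAL3-101 in parental cells (SE 0.15, adjusted p = 4.8e-05) and was lower in resistant than in parental MAL3-101 cells, at -3.02 (SE 0.15, adjusted p = 1.1e-05). MAFK, another small MAF, rose by 1.09 in parental cells (SE 0.14, adjusted p = 0.0011). MAFK was lower in resistant than in parental MAL3-101 cells, at -0.59 (SE 0.14, adjusted p = 0.0085). That call depended on which library was kept. In resistant MAL3-101 against parental DMSO cells it was higher, at 0.49 (SE 0.14, adjusted p = 0.020). MAFG, the third of the family, gave 0.11 in parental cells (adjusted p = 0.19), or 0.17 without DMSO library B (adjusted p = 0.042), and was lower in resistant than in parental MAL3-101 cells at -0.49 (SE 0.06, adjusted p = 5.4e-04). BACH1, the heme-sensitive repressor of HMOX1, was at 24.96 and 26.82 TPM in resistant MAL3-101, 32.11 and 28.6 TPM in parental MAL3-101, and 24.9 and 24.27 TPM in parental DMSO libraries. It rose by 0.29 in parental cells (SE 0.08, adjusted p = 0.024), a call lost with no filter on low levels (adjusted p = 0.058) or, at 0.21, when library A of parental MAL3-101 was left out (adjusted p = 0.17). Its call in resistant against parental MAL3-101 cells (-0.22, SE 0.08, adjusted p = 0.0496) was lost in most settings, among them median-ratio scaling (adjusted p = 0.23).

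CUL3, the scaffold of the ligase that KEAP1 serves, was at 215.08 and 220.08 TPM in resistant MAL3-101, 196.47 and 197.08 TPM in parental MAL3-101, and 124.56 and 112.38 TPM in parental DMSO libraries. It rose by 0.73 with MAL3-101 in parental cells (SE 0.06, adjusted p = 1.9e-04), where KEAP1 fell, and was higher by 0.87 in resistant MAL3-101 than in parental DMSO cells (SE 0.06, adjusted p = 3.9e-05). RBX1, the RING subunit of that ligase, fell by 0.28 in parental cells (SE 0.08, adjusted p = 0.022), a call lost after upper-quartile scaling, in a fit with no trend and when library A of parental MAL3-101 was left out, where 0 regulators were called lower. It was higher in resistant than in parental MAL3-101 cells by 0.54 (SE 0.08, adjusted p = 8.5e-04). SQSTM1 encodes p62, an autophagy receptor that binds KEAP1 and is itself an NRF2 target. It was at 65.61 and 68.16 TPM in resistant MAL3-101, 153.17 and 149.1 TPM in parental MAL3-101, and 129.96 and 154.77 TPM in parental DMSO libraries. In parental cells the drug gave 0.09 (adjusted p = 0.40), or 0.22 without DMSO library B. That library lay above both parental MAL3-101 libraries, and DMSO library A below them. Resistant cells stood apart from both parental groups, at -1.16 against parental MAL3-101 (SE 0.08, adjusted p = 3.9e-05) and -1.07 against parental DMSO (SE 0.08, adjusted p = 6.6e-05). BTRC, an adaptor of another ligase that acts on NRF2, was higher in resistant MAL3-101 than in parental DMSO cells by 0.47 (SE 0.07, adjusted p = 0.0014). Over the 10 regulators, 4 rose, 2 fell and 4 did not pass with MAL3-101 in parental cells, where 40.8% of all tested genes passed, and the median was 0.10 against 0.02 for all. In resistant against parental MAL3-101 cells, 3 were higher and 5 lower, where 56.1% of all passed, and the median was -0.20 against -0.10 for all. In resistant MAL3-101 against parental DMSO cells, 4 were higher and 2 lower, where 50.6% of all passed, and the median was 0.07 against -0.06 for all.

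Of 36 other target genes 29 were tested, and they too went in both directions. In parental cells with MAL3-101, 8 rose, 7 fell and 14 did not pass, with a median of -0.11, where 40.8% of all tested genes passed and their median was 0.02. SLC7A11, the cystine importer that feeds glutathione synthesis and is also a known ATF4 target, was at 12.33 and 13.09 TPM in resistant MAL3-101, 28.72 and 25.56 TPM in parental MAL3-101, and 1.77 and 2.16 TPM in parental DMSO libraries. Its rise of 3.25 in parental cells (SE 0.11, adjusted p = 5.5e-06) was the largest of the list, and resistant MAL3-101 cells were above parental DMSO cells by 2.21 (SE 0.11, adjusted p = 1.6e-05). OSGIN1, an oxidative stress induced gene, rose by 1.04 in parental cells (SE 0.10, adjusted p = 4.7e-04), and ABCC4, an efflux transporter, by 0.70 (SE 0.09, adjusted p = 0.0011). PRDX1, an abundant peroxiredoxin that thioredoxin recharges, fell by 0.95 (SE 0.04, adjusted p = 1.8e-05). It stood at 393.67 and 395.16 TPM in resistant MAL3-101, 308.6 and 295.33 TPM in parental MAL3-101, and 590.48 and 579.73 TPM in parental DMSO libraries. In parental cells PRDX1 and PRDX6 fell as TXN did.

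By function, of 11 detoxification genes 6 rose and 1 fell in parental cells, where 22.6% of all tested genes rose and 18.2% fell. The NADPH genes went the other way, with 0 of 5 rising and 3 falling. Of 2 thioredoxin and peroxiredoxin genes 0 rose and 2 fell. Of 5 glutathione genes 1 rose and 0 fell, and of 6 iron and heme genes 1 rose and 1 fell. In resistant against parental MAL3-101 cells 2 of the detoxification genes were higher and 7 lower, against 21.3% and 34.8% of all tested genes. There 2 of 5 NADPH genes were higher and 1 lower, and 2 of 5 glutathione genes higher and 2 lower. Of the 2 thioredoxin and peroxiredoxin genes 1 was higher and 1 lower, and of 6 iron and heme genes 0 were higher and 2 lower. The iron storage genes FTL and FTH1 have many processed copies in the genome, so their levels are uncertain. FTL was at 1403.62 and 1390.73 TPM in resistant MAL3-101, 1312.33 and 1259.92 TPM in parental MAL3-101, and 1492.38 and 2100.29 TPM in parental DMSO libraries, which differed most between themselves. Its fall of 0.46 in parental cells (SE 0.14, adjusted p = 0.033) was lost in several settings, among them upper-quartile scaling (adjusted p = 0.069) and leaving out either parental MAL3-101 library (adjusted p = 0.12 and 0.15). FTH1 gave 0.04 in parental cells (adjusted p = 0.67), or 0.16 without DMSO library B. That library, at 652.72 TPM, lay above both parental MAL3-101 libraries (622.16 and 618.97 TPM), and DMSO library A, at 556.93 TPM, below them. FTH1 was lower in resistant than in parental MAL3-101 cells at -0.48 (SE 0.07, adjusted p = 0.0012). CBR1 and ALDH3A1 were listed at 0 in all 6 libraries.

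Resistant cells differed from parental MAL3-101 cells in 20 of the 29 other targets, 7 higher and 13 lower, where 56.1% of all tested genes passed, 21.3% higher and 34.8% lower. The median of the 29 was -0.05, against -0.10 for all tested genes. IDH1, a cytosolic NADPH-producing dehydrogenase, was at 105.86 and 104.15 TPM in resistant MAL3-101, 39.53 and 40.34 TPM in parental MAL3-101, and 39.84 and 34.75 TPM in parental DMSO libraries. It was higher in resistant than in parental MAL3-101 cells by 1.37 (SE 0.07, adjusted p = 1.4e-05). In parental cells the drug gave 0.10 for IDH1 (95% interval -0.07 to 0.27, adjusted p = 0.31). SLC7A11 and OSGIN1 were lower in resistant cells, at -1.04 (SE 0.11, adjusted p = 2.8e-04) and -1.05 (SE 0.10, adjusted p = 1.7e-04). AKR1C2, an aldo-keto reductase, was higher by 0.84 (SE 0.14, adjusted p = 0.0021), an uncertain value, as its reads can be split with the near-identical AKR1C1. Against parental DMSO cells, 8 of the 29 were higher and 10 lower (median 0.00), where 50.6% of all tested genes passed (median -0.06). ABCC1, a glutathione conjugate exporter, was higher there by 1.01 (SE 0.07, adjusted p = 3.9e-05), and AKR1C3 lower at -0.71 (SE 0.07, adjusted p = 2.5e-04).

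**Figure D5:**
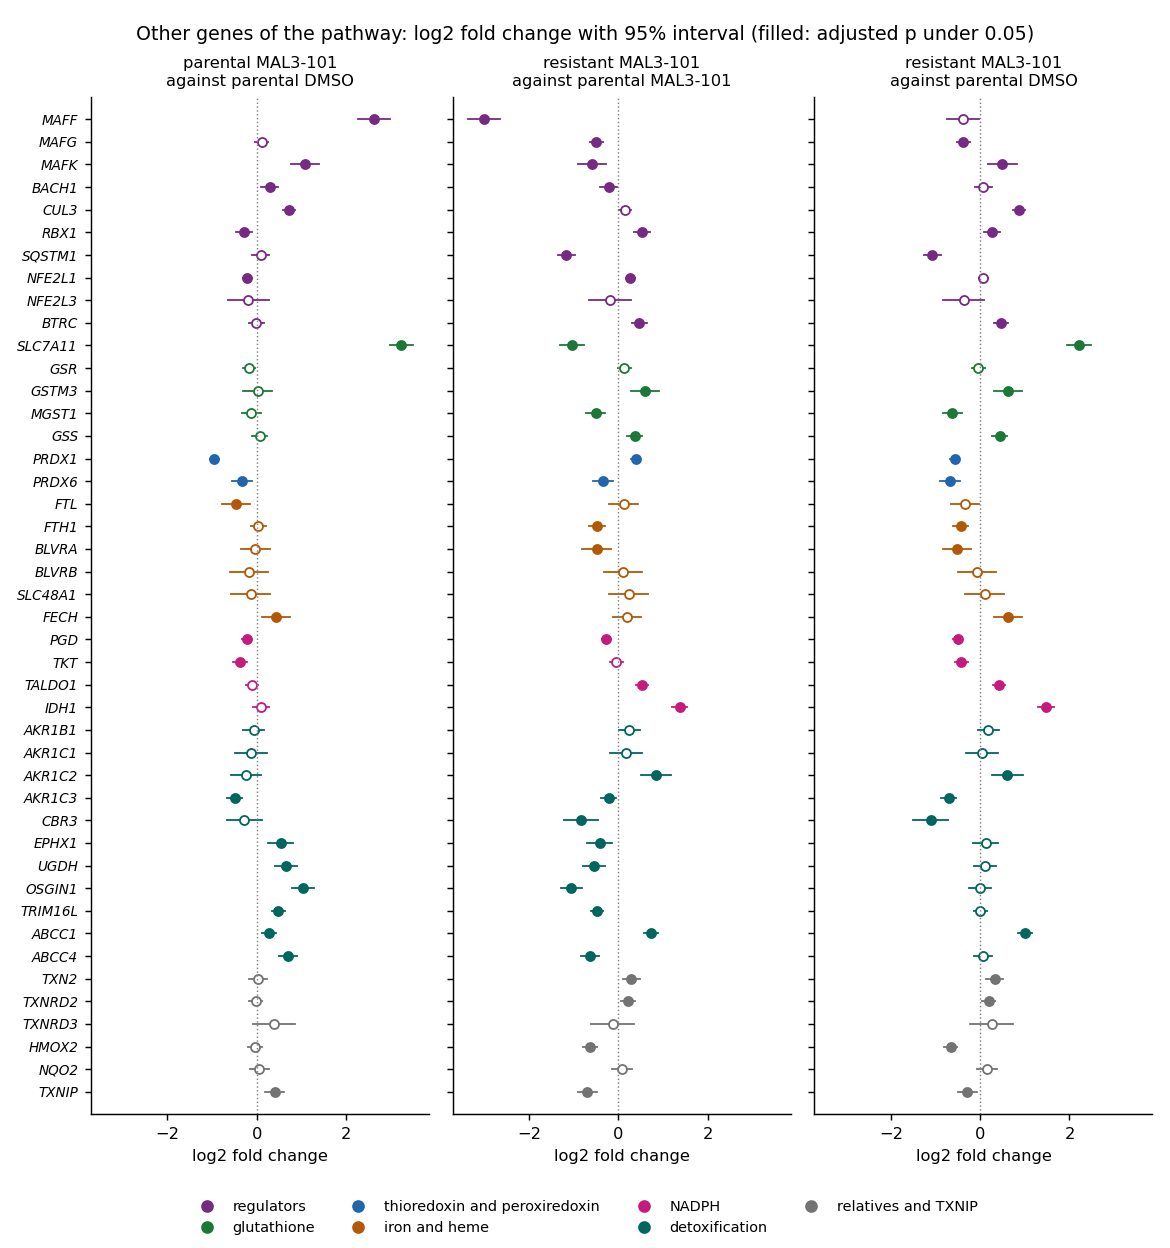
Log2 fold change of log2(TPM + 1) (horizontal axis) with 95% intervals of tested regulators, other targets and relatives in the 3 comparisons, coloured by role; filled points passed at an adjusted p under 0.05. SLC7A11 (3.25) and MAFF (2.63) lead in parental MAL3-101 against parental DMSO cells, and most other genes lie within 1 of 0.

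Relatives of the members that are not classic NRF2 targets were compared as well. TXNIP, which binds and inhibits thioredoxin, was at 57.94 and 56.23 TPM in resistant MAL3-101, 93.58 and 93.57 TPM in parental MAL3-101, and 77.82 and 63.49 TPM in parental DMSO libraries. It rose by 0.41 in parental cells with the drug (SE 0.09, adjusted p = 0.011), where TXN fell, and was lower in resistant than in parental MAL3-101 cells, at -0.70 (SE 0.09, adjusted p = 5.7e-04), where TXN was higher. The rise in parental cells did not pass when either parental MAL3-101 library was left out (adjusted p = 0.069 each). The mitochondrial genes TXN2 and TXNRD2 gave 0.03 (adjusted p = 0.79) and -0.02 (adjusted p = 0.80) in parental cells. In resistant against parental MAL3-101 cells they were higher by 0.29 (SE 0.08, adjusted p = 0.020) and 0.21 (SE 0.07, adjusted p = 0.029), calls lost with no filter on low levels (adjusted p = 0.065 and 0.057) and when any 1 library of these groups was left out.

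The genes most like 4 of the members were found by the Euclidean distance between centred log2(TPM + 1) values over the 6 libraries, among tested genes that averaged at least 5 TPM in some group. For NFE2L2 these were HYOU1, an endoplasmic reticulum chaperone, at a distance of 0.111, ARHGEF2 at 0.130 and PLD6 at 0.137. HYOU1 averaged 143.6 ± 4.07 TPM in resistant MAL3-101, 284.9 ± 5.60 TPM in parental MAL3-101 and 95.4 ± 2.33 TPM in parental DMSO cells (SD, n = 2 each). For KEAP1 they were SUMO2 at 0.0547, GTF3C6 at 0.0681 and CEP152 at 0.0722. HMOX1 had PPP1R9A at 0.146, SDK1 at 0.178 and ZNF503 at 0.195, and NQO1 had the respiratory chain genes NDUFA2 at 0.0699 and NDUFS5 at 0.0729, and NAPEPLD at 0.0795. The 3 nearest genes of each of the 4 members held no other member and no gene of the pathway lists.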

How the data were processed

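Per the labels' protocols, total RNA was sequenced as paired-end libraries. The authors deposited TPM per gene name, 1 file per library; the values of each file sum to about 1000000. The submitters' processing notes name RSEM, DESeq and hg19; no version, annotation or strand setting is given in the sources used here. As TPM values hold no depth, read numbers are unknown and counting intervals cannot be given.

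Genes that averaged at least 1 TPM in some group were tested on log2(TPM + 1), which understates changes of low genes. All 6 libraries entered 1 fit by limma 3.58.1 (R 4.3.3), a mean per group with a trended prior (3 residual and 4.17 prior degrees of freedom). P-values were adjusted by Benjamini-Hochberg within a comparison over all 15148 genes, and a gene was called under 0.05. The code was tested on simulated data. Python 3.11.15 and matplotlib 3.10.9 drew the figures. DMSO libraries were grouped by their descriptions, since their titles name the drug too.

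The members and lists were chosen with earlier results of these data known. Named genes are the 9 members, up to 4 called genes per list and comparison with the largest change (5 TPM or more, no overlap), 9 fixed genes, and the 3 most alike of 4 members; 1 gene of the lists is counted but not reported here by itself, the text takes a part of the rest, and a few others stand in counts or beside a relative. Of 19 cell type markers 18 were found, 1 under an older symbol. Alternatives were other pseudocounts, filters and scalings, no trend, a replicate block, only the libraries compared, and each library left out.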

Additional observations from a re-analysis of the deposited data

How the results depend on the processing

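Of 27 values of the 9 genes (3 comparisons each), 15 kept their side of the threshold under all 16 alternatives and 12 changed it in at least 1, with no called value changing sign. NFE2L2 kept its call in all 3 comparisons, at 1.44 to 1.58 for MAL3-101 in parental cells. The called count over all genes in parental MAL3-101 against parental DMSO cells ranged from 3158 to 7708 with a library left out (6181 with all), and in resistant MAL3-101 against parental DMSO cells from 4955 to 8675 (7662 with all). Members that rose in parental cells numbered 1 to 2 with a library left out. In resistant MAL3-101 against parental DMSO cells, lower members numbered 1 to 6 with a library left out (2 with all), 6 of them without DMSO library A. There, higher members numbered 2 after median-ratio scaling and lower members 1 after upper-quartile scaling; the cause was not tested. The replicate block left 5942, 8381 and 7492 called genes in the 3 comparisons. Whether same-lettered libraries were paired is not given in the labels. Their deviations correlated across genes at 0.03, -0.02 and -0.02, which cannot settle how they were prepared. With the block, TXNRD1 passed in parental cells (adjusted p = 0.049) and SRXN1 no longer passed in resistant against parental MAL3-101 cells (adjusted p = 0.060), while other member calls were kept. Small counts in the lists moved by over 1.5 times. Of the 2 regulators that fell in parental cells, RBX1 and NFE2L1, 1 did with no filter and 0 after upper-quartile scaling or without a trend. In resistant MAL3-101 against parental DMSO cells, the 4 higher regulators became 2 with no filter, the 2 lower ones 1 after upper-quartile scaling, the 2 higher relatives 0 with no filter and 1 without a trend, with the block or with only the libraries compared, and the 2 lower relatives 1 with no filter, upper-quartile scaling, no trend or only the libraries compared. The 2 relatives higher in resistant than in parental MAL3-101 cells became 0 with no filter or no trend. A group left with 1 library is assumed to vary like the others. Reads behind a value are unknown, which limits the low genes GCLC and SRXN1 most.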
